A study of Mus musculus with 12 samples.

Results

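Small nucleolar RNAs (snoRNAs), small Cajal body RNAs (scaRNAs) and small nuclear RNAs (snRNAs) of mouse oocytes were taken as the table's symbols that begin with Snora, Snord, Scarna, Rnu or Rny and a number, and that were listed above 0 in at least 1 group. Of 23235 symbols, 117 matched these names. The 65 with a value above 0 comprised 29 box C/D snoRNA loci, 28 box H/ACA snoRNA loci, 6 scaRNA loci and 2 snRNA loci, and the other 52 were listed at 0 in every group. The loci were thus chosen by name and by an FPKM above 0 in any group, and no Y RNA locus matched. Rnu73b, a locus of the U73 family, was counted with the box C/D snoRNAs.

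Box C/D snoRNAs guide ribose methylation and box H/ACA snoRNAs guide pseudouridylation, mainly of ribosomal RNA, while scaRNAs guide the same modifications on spliceosomal snRNAs in Cajal bodies. Most mammalian snoRNAs lie in introns of host genes and are released from the spliced intron, whereas U11 and U12, the snRNAs of the minor spliceosome, are transcribed from genes of their own. The mature ends of these RNAs are formed by trimming, in which the nuclear RNA exosome and its helicase MTR4 take part. Mature snoRNAs and snRNAs carry no long poly(A) tail.

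The study sequenced poly(A) RNA from Mtr4-null and WT oocytes of mouse ovaries at day 14, labelled as growing GV oocytes, and at day 21, labelled as GV oocytes. The labels list 12 libraries of 10 oocytes each, 3 in each of the 4 groups Mtr4-null day 14, WT day 14, Mtr4-null day 21 and WT day 21, while the design text speaks of duplicates. RNA was primed with oligo-dT in whole-oocyte lysates to which ERCC spike-ins had been added, and Smart-seq2, which reads full-length cDNA without keeping strand, gave the libraries. The strain, the allele, and the promoter behind the loss of Mtr4 are not given in the sources used here, and nothing says whether libraries of a group came from different animals.

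The table gives FPKM, read fragments scaled to transcript length and to the mapped fragments of the library, as 1 mean of the authors per group. There is therefore no replicate error, no test and no known depth behind any value below, and 2-fold, a difference of 1 on the log2(FPKM + 1) scale, is used throughout as a rule of size. In Mtr4-null day 21, 0.475% of the values above 0 had the recurring last digits that division by 3 leaves, against 55.5 to 57.5% in the other 3 groups, so that column may average fewer libraries. Skiv2l2, the gene of MTR4, stood at 1.57 FPKM in Mtr4-null and 27.6 FPKM in WT oocytes at day 14, and at 3.86 FPKM in Mtr4-null and 26.3 FPKM in WT oocytes at day 21. The 14 oocyte markers summed to 12000 to 21300 FPKM per group, the 10 granulosa cell markers to 24.7 to 38.3 FPKM, and the 10 markers of theca, stroma, endothelium and blood to less than either, Pecam1 being the highest of these at 20.7 FPKM, with Hbb-b1 and Hba-a1 at 0 in every group. The part of these markers in the results below was not tested. Values from pooled oocytes are shares of each library's RNA, so fewer oocytes with a transcript and less of it per oocyte cannot be told apart.

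The loci the results turn on are shown first with the sequence of their annotated transcript, from GENCODE M21 on GRCm38, written 5′ to 3′ in DNA letters. The 2 snRNA loci are shown because they had the highest ratios of Mtr4-null to WT at day 21, and capitals mark the U-rich run ATTTTTG or ATTTTTTG, the kind of site that Sm proteins bind.
Rnu11: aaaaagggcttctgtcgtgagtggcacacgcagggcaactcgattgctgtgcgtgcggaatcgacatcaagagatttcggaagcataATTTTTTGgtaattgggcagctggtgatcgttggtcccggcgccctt
Rnu12: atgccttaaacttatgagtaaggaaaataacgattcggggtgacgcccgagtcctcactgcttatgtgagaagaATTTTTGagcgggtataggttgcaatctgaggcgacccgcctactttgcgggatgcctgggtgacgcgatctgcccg
Both snRNA loci hold one of these runs, on the transcribed strand, as do 2.26% of 9118 other annotated transcripts of 50 to 300 bases. The next set holds the H/ACA locus with the highest level in Mtr4-null day 14, another whose WT level was listed at 0 at day 14, and the paralogous scaRNA pair, with capitals on an ACA within the last 8 bases.
Snora47: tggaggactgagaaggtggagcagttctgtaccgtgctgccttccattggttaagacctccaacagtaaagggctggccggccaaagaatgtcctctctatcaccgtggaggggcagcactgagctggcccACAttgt
Snora75: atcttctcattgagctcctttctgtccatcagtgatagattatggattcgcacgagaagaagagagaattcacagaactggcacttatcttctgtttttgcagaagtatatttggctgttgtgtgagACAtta
Scarna3a: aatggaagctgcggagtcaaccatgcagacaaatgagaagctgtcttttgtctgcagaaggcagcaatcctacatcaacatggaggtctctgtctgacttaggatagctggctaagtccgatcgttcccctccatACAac
Scarna3b: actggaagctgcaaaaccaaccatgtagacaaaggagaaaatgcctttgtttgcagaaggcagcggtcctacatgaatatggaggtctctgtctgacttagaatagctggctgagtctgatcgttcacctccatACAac
Of the 28 box H/ACA loci, 27 end in this way, against 5 of 29 box C/D loci and 10.6% of the other short transcripts. Scarna3a and Scarna3b were identical at 120 of 140 aligned positions, or 85.7%, so reads can be split between them and each level is uncertain. The box C/D loci below include 2 pairs of related loci from shared hosts and the locus with the highest WT levels, with capitals on the C box core TGATGA in the first 25 bases and the D box CTGA in the last 15 bases.
Snord104: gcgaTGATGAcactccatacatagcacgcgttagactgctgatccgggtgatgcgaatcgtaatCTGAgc
Snord73a: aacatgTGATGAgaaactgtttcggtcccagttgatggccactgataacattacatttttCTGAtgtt
Rnu73b: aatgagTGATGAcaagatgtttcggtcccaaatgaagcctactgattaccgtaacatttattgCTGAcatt
Snord49a: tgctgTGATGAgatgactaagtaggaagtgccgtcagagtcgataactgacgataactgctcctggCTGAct
Snord49b: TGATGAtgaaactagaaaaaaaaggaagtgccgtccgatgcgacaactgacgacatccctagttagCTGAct
Snord4a: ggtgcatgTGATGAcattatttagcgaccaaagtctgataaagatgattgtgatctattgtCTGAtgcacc
Both boxes were found in 20 of 29 box C/D loci, in 0 of 28 box H/ACA loci and in 0.0987% of the other short transcripts. The D box alone was found in 2 box H/ACA loci. A locus without a match has other letters in that window, and nothing else follows from it. Snord73a and Rnu73b shared 73.2% of aligned positions and Snord49a and Snord49b shared 68.9%.

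These RNAs were listed above 0 more often in Mtr4-null than in WT oocytes at both ages. At day 14, 47 of the 65 loci (72.3%) had a value above 0 in Mtr4-null and 22 (33.8%) in WT oocytes. At day 21 the counts were 50 (76.9%) in Mtr4-null and 20 (30.8%) in WT oocytes. Across all 19192 symbols above 0 in any group, the shares were 92.9% in Mtr4-null and 90.6% in WT oocytes at day 14, and 86.7% in Mtr4-null and 89.7% in WT oocytes at day 21. Among 93 microRNA loci, which are short too, they were 72.0% in Mtr4-null and 43.0% in WT oocytes at day 14, and 48.4% in Mtr4-null and 34.4% in WT oocytes at day 21.

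A total of 31 loci were listed at 0 in both WT groups, and 3 (Snora5c, Snord47 and Snord88c) in both Mtr4-null groups. Of the 31, 13 were above 0 in both Mtr4-null groups. The 31 passed the choice only through an Mtr4-null value, so they could not come out lower in Mtr4-null oocytes. The 3 passed it only through a WT value and could not come out higher. The direction of these differences follows from the choice of loci and is no further evidence. The 21 loci above 0 in a single group had to differ between groups, because the choice of loci asks for 1 value above 0. Of these, 6 were seen in Mtr4-null day 14, 2 in WT day 14, 12 in Mtr4-null day 21 and 1 in WT day 21. Only 7 loci (Snora17, Snora26, Snora47, Snora68, Snora74a, Snora81 and Snord17) were above 0 in all 4 groups.

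Summed over the 65 loci, the level was 9296 FPKM in Mtr4-null and 837.8 FPKM in WT oocytes at day 14, which is 1.56% of all FPKM in Mtr4-null and 0.14% in WT oocytes. At day 21 the sum was 27430 FPKM in Mtr4-null and 664.4 FPKM in WT oocytes, or 4.22% of all FPKM in Mtr4-null and 0.11% in WT oocytes. Few loci carried the sums. Snora47, Snord91a and Snord4a made up 47.6% of the Mtr4-null day 14 sum, Snord4a, Snord12 and Snord104 made up 65.0% of the WT day 14 sum, Snord19, Rnu11 and Snord85 made up 34.6% of the Mtr4-null day 21 sum, and Snord4a, Snord47 and Snora47 made up 70.2% of the WT day 21 sum. Without those 3 in each group, the sums were 4869 FPKM in Mtr4-null and 293.6 FPKM in WT oocytes at day 14, and 17940 FPKM in Mtr4-null and 198.0 FPKM in WT oocytes at day 21.

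**Figure D1:**
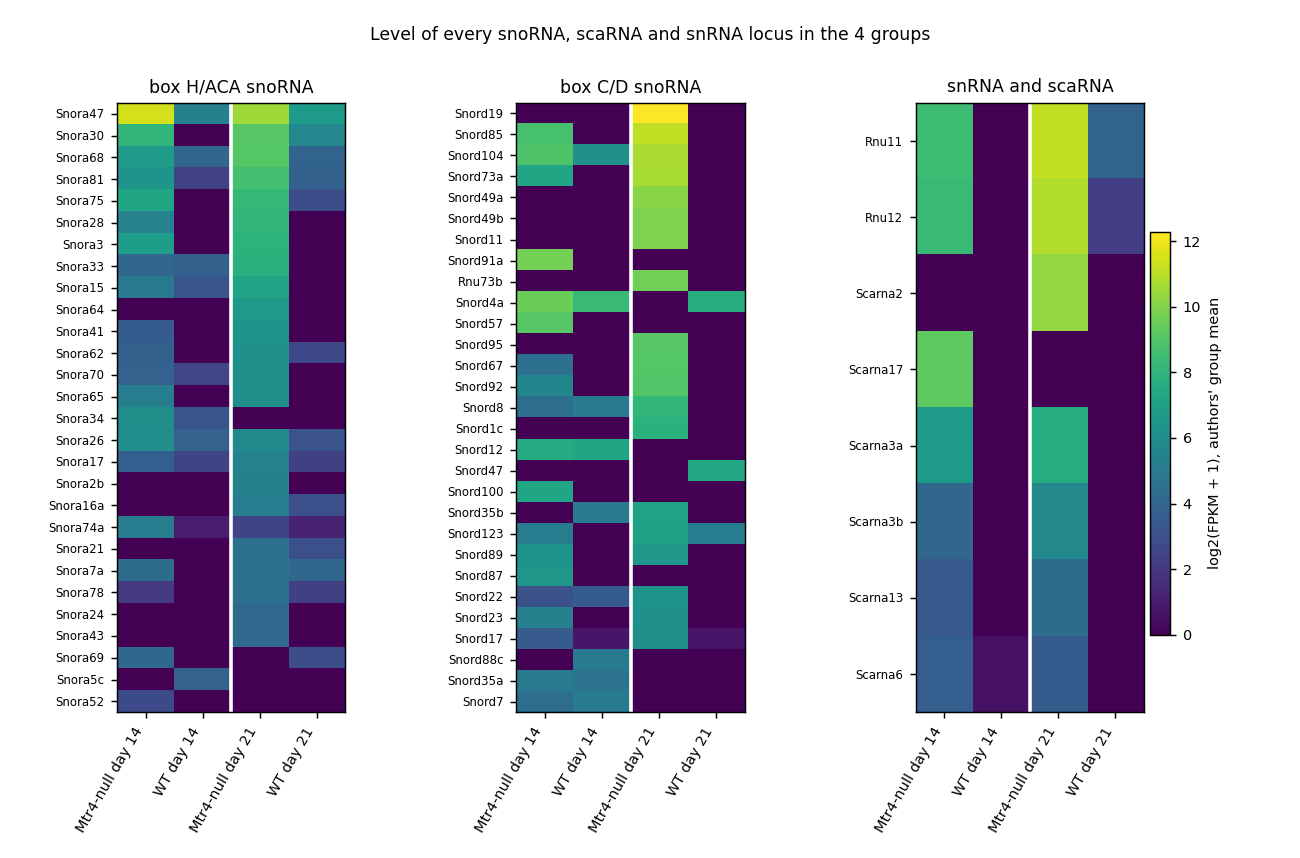
Heat map of log2(FPKM + 1), the authors' mean per group, for all 65 loci in 4 groups, with 1 row per locus, each class ordered by its highest level. The Mtr4-null columns are lighter than the WT columns of the same age in most rows, and 31 rows are at 0 in both WT columns.

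At day 14, 41 of the 65 loci were at least 2-fold higher and 3 at least 2-fold lower in Mtr4-null than in WT oocytes. Among all 19192 symbols the shares were 5.21% higher and 0.985% lower, and among the 93 microRNA loci 52.7% and 19.4%. The higher loci comprised both snRNA loci, 5 of 6 scaRNA loci, 20 of 28 box H/ACA loci and 14 of 29 box C/D loci, which at 48.3% is below the share of microRNA loci. The median log2 difference was 2.75 over the 65 loci, 2.72 over the H/ACA loci and 0.39 over the C/D loci, against 0.03 over all symbols. In 28 of the 41 higher loci WT oocytes were listed at 0, so that no fold can be given. At both ages the counts include the 31 loci at 0 in both WT groups, which could only be equal or higher in Mtr4-null oocytes. Of the 19 loci above 0 in both genotypes, 13 were at least 2-fold higher and 0 were at least 2-fold lower in Mtr4-null oocytes, and the median ratio of Mtr4-null to WT was 3.81.

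At day 21, 49 loci were at least 2-fold higher and 3 at least 2-fold lower in Mtr4-null oocytes, beside 14.4% higher and 16.6% lower among all symbols and 35.5% higher and 16.1% lower among microRNA loci. The higher loci comprised both snRNA loci, 5 scaRNA loci, 23 box H/ACA loci and 19 box C/D loci. The median log2 difference was 5.20 over the 65 loci, 4.02 over the H/ACA loci and 6.51 over the C/D loci, against -0.01 over all symbols. WT oocytes were listed at 0 in 33 of the 49. Of the 17 loci above 0 in both genotypes, 16 were at least 2-fold higher in Mtr4-null oocytes, with a median ratio of 10.8, and the remaining one was Snora7a.

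The order of the classes changed with the measure. Box H/ACA loci were more often 2-fold higher than box C/D loci at both ages, while the summed C/D level was close to the H/ACA level at day 14 (3917 and 3963 FPKM in Mtr4-null oocytes) and above it at day 21 (16990 and 4783 FPKM in Mtr4-null oocytes). In WT oocytes the summed C/D level was 710.1 FPKM at day 14 and 401.4 FPKM at day 21, and the summed H/ACA level was 127.3 FPKM at day 14 and 245.4 FPKM at day 21. The differences between classes were not tested. C/D loci are shorter, with a median RefSeq length of 73.5 bases against 122.0 bases for H/ACA loci, and FPKM divides by length. The lowest values above 0 rose more steeply at short lengths than division by length gives. In Mtr4-null day 21 they were 17.1 FPKM at 139 bases, 70.9 FPKM at 99 bases and 540 FPKM at 68 bases. WT oocytes were listed at 0 in 17 of the 19 C/D loci higher at day 21. The part of length in the C/D sums and medians was not tested.

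A total of 31 loci were at least 2-fold higher in Mtr4-null oocytes at both ages, as were 863 of all symbols. They were 16 H/ACA, 9 C/D, 4 scaRNA and both snRNA loci. At day 14 alone 10 loci passed the size, among them Snord57, Snord87, Snord91a, Snord100 and Scarna17, and each of these 5 was listed at 0 in the other 3 groups. At day 21 alone 18 passed it, among them Snord19, Snord11, Snord49a, Snord49b, Snord95 and Scarna2, also listed at 0 elsewhere. At neither age did 6 loci pass it, 5 of them C/D (Snord7, Snord12, Snord35a, Snord47 and Snord88c) and 1 H/ACA (Snora5c).

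**Figure D2:**
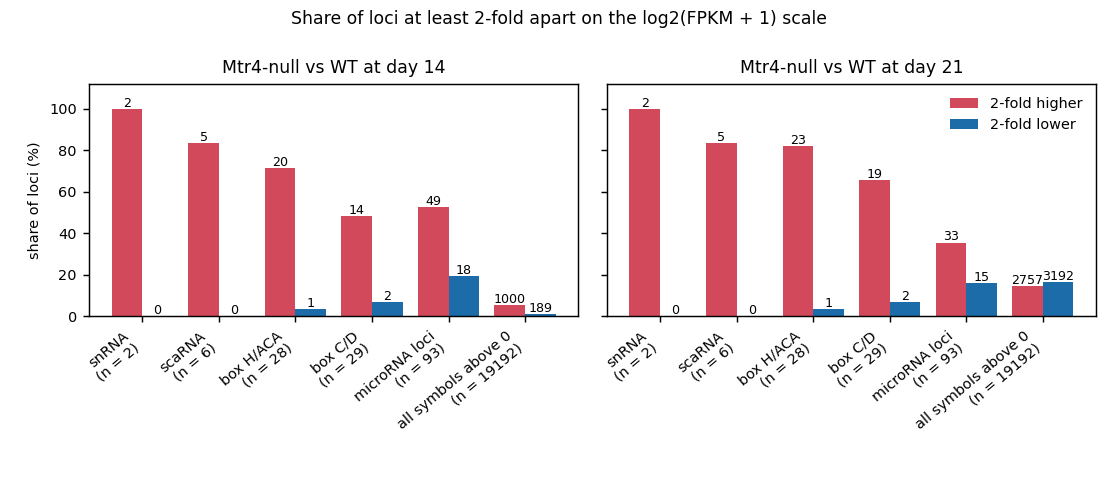
Bars give the share of loci, in percent, that were at least 2-fold higher (red) or lower (blue) in Mtr4-null than in WT oocytes at each age, by class, with the number of loci above each bar. All 4 classes stand above the share of all symbols in the higher direction (5.21% at day 14 and 14.4% at day 21). The 31 loci at 0 in both WT groups could only be equal or higher.

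Both snRNA loci were far higher in Mtr4-null than in WT oocytes at both ages, by the rule of size. Rnu11 encodes U11, which base-pairs with the start of minor-class introns, and was at 354 FPKM in Mtr4-null oocytes and listed at 0 in WT oocytes at day 14. At day 21 it was at 2270 FPKM in Mtr4-null and 13.9 FPKM in WT oocytes, a ratio of 163. Rnu12 encodes U12, which pairs with the branch site of the same introns. At day 14 its level was 317 FPKM in Mtr4-null oocytes, and WT oocytes were listed at 0. At day 21 it was at 1846 FPKM in Mtr4-null and 3.67 FPKM in WT oocytes, a ratio of 502. Both genes lie outside any same-strand host. Rnu11 overlaps an exon of Gm28872 on the opposite strand, and the libraries do not keep strand, so reads of the pair cannot be told apart, while Rnu12 overlaps no exon of another gene.

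Among scaRNAs, 4 of 6 loci were above 0 in both Mtr4-null groups. Scarna3a was at 103 FPKM in Mtr4-null day 14 and 193 FPKM in Mtr4-null day 21, and listed at 0 in both WT groups. Its paralogue Scarna3b was at 15.6 FPKM and 54.1 FPKM in the same Mtr4-null groups and at 0 in WT oocytes. Scarna3a overlaps the microRNA locus Mir1843b, itself at 187 FPKM in Mtr4-null day 14, 798 FPKM in Mtr4-null day 21 and 0 in both WT groups, and Scarna3b overlaps Mir1843a, so reads of each pair cannot be told apart. Scarna13 was at 9.85 FPKM in Mtr4-null day 14 and 19.3 FPKM in Mtr4-null day 21, and listed at 0 in both WT groups. Scarna13 lies in Snhg10, a non-coding host gene, and overlaps the microRNA locus Mir3069. Scarna6 was at 11.6 FPKM in Mtr4-null and 0.451 FPKM in WT oocytes at day 14, and at 10.8 FPKM in Mtr4-null and 0 in WT oocytes at day 21. The last pair appeared at 1 age each. Scarna17 was at 604 FPKM in Mtr4-null day 14 alone, and Scarna2, which guides a methylation of the U2 snRNA, was at 1256 FPKM in Mtr4-null day 21 alone. The RefSeq length of Scarna2 is 61 bases, while GENCODE annotates 414 bases, and that of Scarna17 is 62 bases, against 79 in GENCODE. FPKM divides by length, and the part of length in these 2 levels was not tested. The WT groups together held 1 scaRNA value above 0, that of Scarna6.

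Snora47 had the highest level of all H/ACA loci in every group. It was at 2838 FPKM in Mtr4-null and 40.6 FPKM in WT oocytes at day 14, a ratio of 70.0. At day 21 it was at 1482 FPKM in Mtr4-null and 101 FPKM in WT oocytes, a ratio of 14.6. Snora47 alone made up 71.6% of the summed H/ACA level of Mtr4-null day 14. Its host Zbed3, which encodes a protein of the oocyte cortex, was within 2-fold of its WT level at both ages, at 4386 FPKM in Mtr4-null and 3175 FPKM in WT oocytes at day 14, and at 2354 FPKM in Mtr4-null and 4275 FPKM in WT oocytes at day 21.

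Other H/ACA loci were lower in level and separated in the same direction. Snora81, in the translation initiation gene Eif4a2, was at 81.8 FPKM in Mtr4-null and 4.39 FPKM in WT oocytes at day 14, and at 390 FPKM in Mtr4-null and 13.0 FPKM in WT oocytes at day 21. Snora68 was at 107 FPKM in Mtr4-null and 15.6 FPKM in WT oocytes at day 14, and at 520 FPKM in Mtr4-null and 14.1 FPKM in WT oocytes at day 21. Snora30 was at 284 FPKM in Mtr4-null and 0 in WT oocytes at day 14, and at 553 FPKM in Mtr4-null and 51.1 FPKM in WT oocytes at day 21. All 3 were higher in Mtr4-null oocytes at both ages, and Snora30 was the only one of them listed at 0 in a WT group.

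Snora75, in the nucleolin gene Ncl, was at 153 FPKM in Mtr4-null and 0 in WT oocytes at day 14, and at 285 FPKM in Mtr4-null and 6.76 FPKM in WT oocytes at day 21. Snora3, in Rpl27a, was at 114 FPKM in Mtr4-null day 14 and 248 FPKM in Mtr4-null day 21, and listed at 0 in both WT groups. Snora28, in Eif5, was at 42.5 FPKM and 269 FPKM in the same Mtr4-null groups and at 0 in WT oocytes. All 3, like Snora81, overlap an annotated exon of the host, so part of their reads can be the host's own. Snora81 also overlaps the small RNA locus Gm49346, so reads of Snora81 and Gm49346 cannot be told apart. Snora33, in Rps12, showed a difference at 1 age, at 15.8 FPKM in Mtr4-null and 13.2 FPKM in WT oocytes at day 14, but at 218 FPKM in Mtr4-null and 0 in WT oocytes at day 21. Snora74a was higher in Mtr4-null oocytes by a factor of 37.9 at day 14 (36.3 FPKM, against 0.957 FPKM in WT oocytes) and 3.47 at day 21 (4.57 FPKM, against 1.32 FPKM in WT oocytes). Snora74a overlaps the small RNA locus Gm49347, so reads of Snora74a and Gm49347 cannot be told apart.

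Some H/ACA loci lay close to the 2-fold size. Snora17 had a log2 difference of 1.17 and Snora70 one of 1.30 at day 14, Snora74a one of 1.26 and Snora21 one of 1.66 at day 21, and Snora7a one of 0.49 at day 21. Snora7a, in Rpl32, was at 23.1 FPKM in Mtr4-null and 16.2 FPKM in WT oocytes at day 21, beside 19.4 FPKM in Mtr4-null and 0 in WT oocytes at day 14. Snora5c, in Tbrg4, was the H/ACA locus lower in Mtr4-null oocytes at day 14, listed at 0 in Mtr4-null and at 13.6 FPKM in WT oocytes.

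The highest level of any of the 65 loci was that of a box C/D locus. Snord19, in the nucleolar gene Gnl3, was at 4979 FPKM in Mtr4-null day 21 and listed at 0 in the other 3 groups. Snord19 overlaps an annotated exon of Gnl3, so part of its reads can be the host's own. Its RefSeq length is 54 bases, the shortest among the 64 loci with one, while GENCODE annotates 76 bases. With no other locus as short, 4979 FPKM was itself the lowest value for that length. It cannot be told from a level near the lowest that a locus so short can show. Snord85 was at 414 FPKM in Mtr4-null day 14 and 2240 FPKM in Mtr4-null day 21, and at 0 in both WT groups. Its Mtr4-null values were 1.0 times (day 14) and 2.35 times (day 21) the lowest value among loci as short or shorter. Snord104 was at 476 FPKM in Mtr4-null and 71.5 FPKM in WT oocytes at day 14, and at 1707 FPKM in Mtr4-null and 0 in WT oocytes at day 21. Snord85 and Snord104 thus differed in the same direction at both ages, with WT listed at 0 in 3 of the 4 pairs.

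Loci from 1 host did not always appear together. Snord73a was at 151 FPKM in Mtr4-null day 14 and 1619 FPKM in Mtr4-null day 21, whereas Rnu73b, from the same ribosomal protein gene Rps3a1, was at 0 and 812 FPKM in these groups, and both were at 0 in WT oocytes. Snord49a and Snord49b, from the non-coding host 2410006H16Rik, were at 1090 FPKM and 954 FPKM in Mtr4-null day 21 and at 0 in every other group. In Kansl2, Snora34 was at 65.7 FPKM in Mtr4-null and 8.04 FPKM in WT oocytes at day 14 and at 0 in both at day 21, while Snora2b was above 0 in Mtr4-null day 21 alone, at 41.3 FPKM. Snora34 overlaps the microRNA locus Mir1291, so reads of Snora34 and Mir1291 cannot be told apart.

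Snord17, in Snx5, is the longest C/D locus at 221 bases and the one C/D locus above 0 in every group. It was at 10.6 FPKM in Mtr4-null and 0.656 FPKM in WT oocytes at day 14, a ratio of 16.2. At day 21 it was at 65.8 FPKM in Mtr4-null and 0.594 FPKM in WT oocytes, a ratio of 111. Snord67, in Ckap5, and Snord92, in Wdr43, had ratios that cannot be given, since WT oocytes were at 0. Snord67 was at 21.5 FPKM in Mtr4-null day 14 and 520 FPKM in Mtr4-null day 21, and Snord92 was at 48.0 FPKM in Mtr4-null day 14 and 499 FPKM in Mtr4-null day 21.

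Several C/D loci went the other way at 1 age or did not separate. Snord4a, in Rpl23a, was at 745 FPKM in Mtr4-null and 323 FPKM in WT oocytes at day 14, but at 0 in Mtr4-null and 198 FPKM in WT oocytes at day 21. Snord35b was at 0 in Mtr4-null and 33.6 FPKM in WT oocytes at day 14, but at 139 FPKM in Mtr4-null and 0 in WT oocytes at day 21. Both crossed between ages. Snord47, in the non-coding host Gas5, was at 167 FPKM in WT day 21 and 0 elsewhere, and Snord88c was at 32.7 FPKM in WT day 14 and 0 elsewhere. At day 14, Snord12 was at 187 FPKM in Mtr4-null and 150 FPKM in WT oocytes, and Snord35a at 32.4 FPKM in Mtr4-null and 24.5 FPKM in WT oocytes. Snord7, Snord8 and Snord22 were within 2-fold and lower in Mtr4-null oocytes at that age, with log2 differences of -0.63, -0.61 and -0.53. At day 21, Snord8 was at 284 FPKM and Snord22 at 76.1 FPKM in Mtr4-null oocytes, with WT oocytes at 0. Snord7 was at 0 in both genotypes at that age.

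Among loci above 0, shorter loci had higher FPKM in every group. Across loci with a value above 0 and a RefSeq length, Spearman's correlation of length with FPKM was -0.62 in Mtr4-null day 14 (n = 47 loci), -0.89 in WT day 14 (n = 22), -0.70 in Mtr4-null day 21 (n = 49) and -0.78 in WT day 21 (n = 20). Loci of 1 group share its libraries, so these values are a description. Some values were exactly equal at equal length. In Mtr4-null day 14 the 66-base loci Snord12 and Mir144 both stood at 187 FPKM, and the 89-base loci Snord35a and Mir1953 both at 32.4 FPKM. In Mtr4-null day 21 the 94-base loci Snord89 and Mirlet7a-1 both stood at 90.1 FPKM.

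The lowest value above 0 at a given length differed between groups. Among loci of 80 to 100 bases, the lowest value above 0 was 19.9 FPKM in Mtr4-null and 15.6 FPKM in WT oocytes at day 14, and 70.9 FPKM in Mtr4-null and 14.1 FPKM in WT oocytes at day 21. Among loci of 121 to 140 bases it was 5.72 FPKM in Mtr4-null and 4.72 FPKM in WT oocytes at day 14, and 17.1 FPKM in Mtr4-null and 3.99 FPKM in WT oocytes at day 21. In 3 length classes, the lowest values of Mtr4-null day 21 were 3.62 to 5.16 times those of WT day 14, those of Mtr4-null day 14 were 1.21 to 1.37 times and those of WT day 21 0.844 to 0.904 times. At these lengths, levels in Mtr4-null day 21 thus started from a higher lowest value than in the other 3 groups, and the part of this in the genotype differences at day 21 was not tested.

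Each value was set against the lowest value of any of the loci with the same or a shorter length in its column, itself included. A short locus has few or no others to be compared with, so box C/D loci are close to that value partly by their length. The WT groups also hold fewer values, 22 and 20 against 47 and 49 in the Mtr4-null groups. A lowest value taken from fewer loci tends to lie closer to each of them, so these shares do not compare the genotypes. In WT oocytes, 21 of 22 values at day 14 and 17 of 20 at day 21 lay within 3-fold of that lowest value. The exceptions were Snora47 in both groups and Snora30 and Snora81 at day 21. In Mtr4-null oocytes, 28 of 47 values at day 14 and 30 of 49 at day 21 lay within 3-fold of it, and 8 and 5 were more than 10-fold above it. The 4 loci more than 10-fold above it in both Mtr4-null groups were Rnu11, Rnu12, Snora47 and Snora81. More than 3-fold above it in both were 13 loci, which also included Snora3, Snora28, Snora30, Snora68, Snora75, Scarna3a, Scarna13, Snord17 and Snord104. These were picked on their Mtr4-null values, so their genotype differences are no further evidence.

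**Figure D3:**
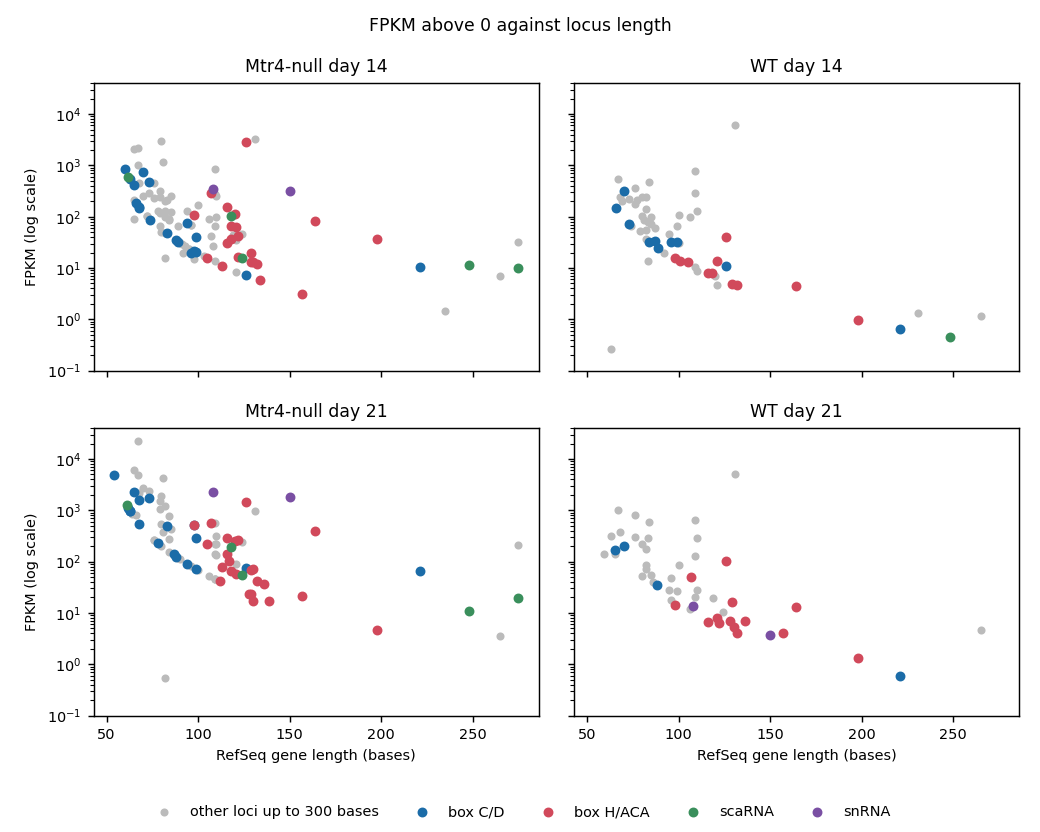
FPKM (log scale) against RefSeq gene length in bases, 1 panel per group, for loci above 0. Colours give the class, and grey points are other loci of up to 300 bases, shown from 0.1 FPKM. Levels fall with length in every panel, and Rnu11, Rnu12 and Snora47 stand above most loci of like length in both Mtr4-null panels.

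The comparisons between ages use the same columns as those between genotypes. In Mtr4-null oocytes, 38 loci were at least 2-fold higher and 13 at least 2-fold lower at day 21 than at day 14, beside 6.43% and 11.7% of all symbols. Of the 35 loci above 0 at both ages, 23 were at least 2-fold higher and 1, Snora74a, at least 2-fold lower at day 21, with a median ratio of day 21 to day 14 of 4.68. The higher lowest values of that column, given above, moved in the same direction, and their part was not tested. Of the 13 lower loci, 12 were listed at 0 at day 21, among them Snord91a (0 at day 21 and 844 FPKM at day 14), Snord4a (0 at day 21 and 745 FPKM at day 14) and Snord57 (0 at day 21 and 551 FPKM at day 14).

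In WT oocytes, 14 loci were at least 2-fold higher and 13 at least 2-fold lower at day 21, beside 1.41% and 2.08% of all symbols. In 12 of the 14 the day 14 value was 0, and in all 13 the day 21 value was 0. Of the 8 loci above 0 at both ages, 2 were at least 2-fold higher at day 21. These were Snora47, at 101 FPKM at day 21 and 40.6 FPKM at day 14, and Snora81, at 13.0 FPKM at day 21 and 4.39 FPKM at day 14. The median ratio over the 8 was 0.906. By class, 10 H/ACA loci were higher and 5 lower, and 2 C/D loci were higher and 8 lower.

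Host genes are a readout that the choice of loci did not use. In the GENCODE M21 annotation 58 of the 65 loci lie in a gene on the same strand, and 55 of these have the host in the table, with 51 different hosts. The loci lie in an intron of the host in 31 cases and overlap an annotated exon of it in 27. At day 14, 33 of the 55 loci were at least 2-fold higher in Mtr4-null oocytes, and the host was within 2-fold of its WT level for 29 of them, higher for 4 and lower for 0. Over the 51 hosts the median log2 difference was 0.05. At day 21, 40 of the 55 loci were higher, and the host was higher for 16, within 2-fold for 21 and lower for 3 of them. The median over hosts was 0.35. Among all symbols, 5.21% were higher and 0.985% lower at day 14, and 14.4% higher and 16.6% lower at day 21.

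The hosts differed by kind. At day 14, 27 of 40 loci in hosts annotated as protein-coding were higher, and the host was within 2-fold of its WT level for all 27. Of the 15 ribosomal protein genes that host 17 loci, 0 were 2-fold apart, with log2 differences of -0.56 to 0.13, while 11 of the 17 loci were higher. Of 14 hosts annotated as non-coding, which by that annotation include Cct6a, 7 were at least 2-fold higher, beside 5.21% of all symbols. At day 21, 6 of 37 protein-coding hosts were at least 2-fold higher and 3 lower, with a median log2 difference of -0.16. Among all symbols 14.4% were higher and 16.6% lower, so the share of higher protein-coding hosts was near that of all symbols. Of the 14 non-coding hosts, 13 were higher, with a median of 2.61. All 11 loci that were higher at day 21 in a non-coding host had a host that was higher as well. With 13 of the 14 hosts higher, little else could be found. Snord12, Snord7 and Snord47 were not higher at day 21, with log2 differences of 0.0, 0.0 and -7.39. Their non-coding hosts had 2.93, 2.38 and 1.71. Snhg9, host of Snora78, was at 209 FPKM in Mtr4-null and 12.6 FPKM in WT oocytes at day 14, when Snora78 was at 3.09 FPKM in Mtr4-null and 0 in WT oocytes. At day 21 Snhg9 was at 1017 FPKM in Mtr4-null and 27.6 FPKM in WT oocytes, when Snora78 was at 21.4 FPKM in Mtr4-null and 4.06 FPKM in WT oocytes.

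Across the 55 pairs of locus and host, Spearman's correlation of the 2 log2 differences was -0.13 at day 14 and -0.10 at day 21. The pairs share libraries, and some share a host. A host with no difference and a locus with a large one are both common, as for Snora75 and Ncl, where the host was at 35.1 FPKM in Mtr4-null and 36.7 FPKM in WT oocytes at day 14, and at 52.6 FPKM in Mtr4-null and 52.1 FPKM in WT oocytes at day 21.

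**Figure D4:**
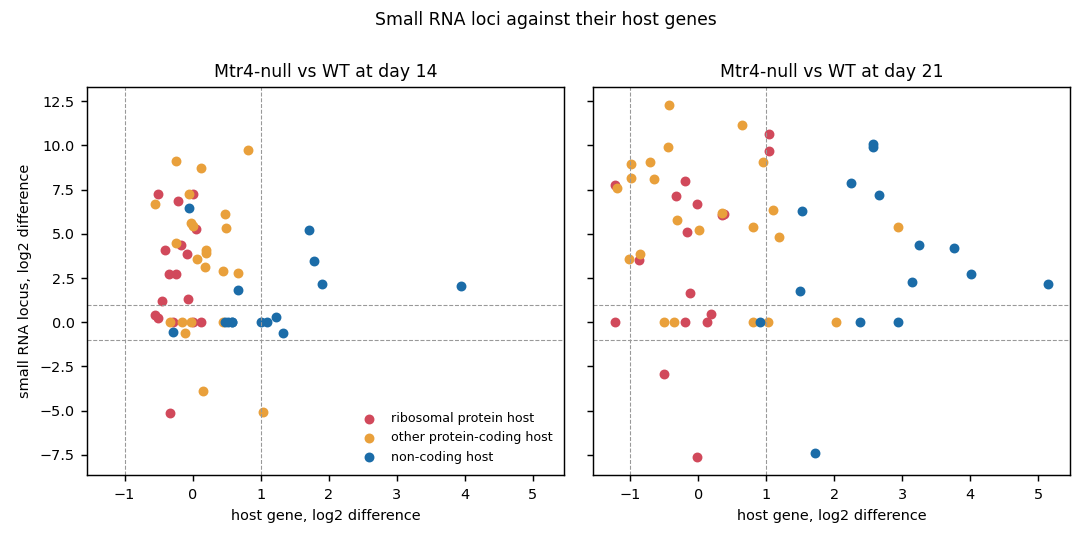
Log2 difference of Mtr4-null against WT oocytes for 55 loci (vertical) and their host genes (horizontal), on the log2(FPKM + 1) scale, at day 14 (left) and day 21 (right). Dashed lines mark 2-fold. At day 14, 29 of 55 points lie above the upper horizontal line and between the vertical lines, and at day 21 the non-coding hosts lie at 0.90 to 5.15.

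Genes of the proteins that carry these RNAs were mostly within 2-fold at day 14. Of the box C/D core proteins, Fbl, the methyltransferase, was at 13.4 FPKM in Mtr4-null and 8.88 FPKM in WT oocytes at day 14, and at 18.5 FPKM in Mtr4-null and 8.92 FPKM in WT oocytes at day 21. Fbl, Nop56, Nop58 and Nhp2l1 were within 2-fold on the log2(FPKM + 1) scale at both ages, Fbl only just at day 21, with a log2 difference of 0.98. Of the 4 H/ACA core genes, 0 were 2-fold apart at day 14 and 2 were lower at day 21. Dkc1, the pseudouridine synthase, was at 26.0 FPKM in Mtr4-null and 82.1 FPKM in WT oocytes at day 21, and Gar1 was at 3.71 FPKM in Mtr4-null and 8.49 FPKM in WT oocytes. Of 12 assembly factors, 0 were 2-fold apart at day 14, and 4 were higher and 4 lower at day 21. Of 15 snRNP core genes the counts were 0 at day 14 and 2 higher and 2 lower at day 21. Of 25 genes of snRNA synthesis, export and modification they were 0 at day 14 and 5 higher and 5 lower at day 21. Among all symbols, 5.21% were higher and 0.985% lower at day 14, and 14.4% higher and 16.6% lower at day 21. More 2-fold differences at day 21 are thus not particular to these genes.

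Among 22 genes for trimming and tailing of snoRNA and snRNA ends, 1 was higher and 1, Skiv2l2 itself, lower at day 14, beside 5.21% and 0.985% of all symbols. The higher one was the exosome subunit gene Exosc2, at 233 FPKM in Mtr4-null and 23.9 FPKM in WT oocytes at day 14, and at 913 FPKM in Mtr4-null and 20.9 FPKM in WT oocytes at day 21. At day 21, 4 of the 22 were higher and 6 lower, beside 14.4% higher and 16.6% lower among all symbols. Of the nuclease genes at day 21, Exosc10 was lower, at 9.99 FPKM in Mtr4-null and 21.9 FPKM in WT oocytes, as was Parn, at 7.28 FPKM in Mtr4-null and 22.1 FPKM in WT oocytes. Toe1 was higher, at 18.1 FPKM in Mtr4-null and 3.13 FPKM in WT oocytes, and Dis3 was within 2-fold, at 4.01 FPKM in Mtr4-null and 3.67 FPKM in WT oocytes.

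Other structured non-coding RNAs outside the chosen names were higher in Mtr4-null oocytes in 4 of 5 cases at both ages. Among all symbols 5.21% were higher at day 14 and 14.4% at day 21. Rmrp, the RNA of RNase MRP, was at 32.1 FPKM in Mtr4-null day 14 and 212 FPKM in Mtr4-null day 21, and at 0 in both WT groups. Terc, the telomerase RNA, which carries an H/ACA domain, was at 2.71 FPKM in Mtr4-null and 0 in WT oocytes at day 14, and at 15.4 FPKM in Mtr4-null and 0.122 FPKM in WT oocytes at day 21. The RNase P RNA Rpph1 and the vault RNA Vaultrc5 were also at least 2-fold higher at both ages. Rn45s, the ribosomal RNA precursor, was within 2-fold, at 956 FPKM in Mtr4-null and 893 FPKM in WT oocytes at day 14, and at 654 FPKM in Mtr4-null and 1132 FPKM in WT oocytes at day 21.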

How the data were processed

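Poly(A) RNA of mouse oocytes was profiled in 12 labelled libraries, 3 in each of 4 groups. The authors deposited 1 table of FPKM per gene symbol with 1 mean per group. TopHat2 2.1.1, Cufflinks 2.2.1 and the build mm9 were used per the submitters' processing notes, which give no role or order. No values per library were used, so depth, replicate spread and precision are unknown, and the planned limma fits could not be made. From the means, log2(FPKM + 1) differences were computed over all 19192 symbols above 0 in any group, and loci at least 2-fold apart were counted (Python 3.11.15, pandas 2.3.3, numpy 2.4.6, scipy 1.17.1, matplotlib 3.10.9). Counting was tested on simulated differences. Gene lengths came from RefSeq for 64 of 65 loci, and hosts and sequences from GENCODE M21 on GRCm38, by symbol, with no coordinates taken from mm9. The loci and gene lists were chosen with earlier results of these data known. All snRNA and scaRNA loci, the C/D and H/ACA loci with the highest levels, the largest differences and those nearest to 2-fold were named by rule. The comparison with the lowest value at a length, the sum without the top 3 loci, the end-digit count, equal values, shared hosts and the loci named as single cases were chosen after the values were seen. Alternatives were other pseudocounts, scalings and filters.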

Additional observations from a re-analysis of the deposited data

Results flagged for a closer look

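Genotype differences ran in opposite directions at the 2 ages for 3 loci, and the difference between ages was not tested. The log2 difference of Mtr4-null against WT for Snora69, in Rpl39, was -2.90 at day 21 and 4.1 at day 14, a gap of -7.0. Snord35b had 7.13 at day 21 and -5.11 at day 14, a gap of 12.24. Snord4a had -7.64 at day 21 and 1.20 at day 14, a gap of -8.84. In 5 of these 6 genotype pairs, 1 of the groups was listed at 0. Outlying libraries were not looked for, since the table holds group means.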

How the results depend on the processing

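The counts of loci at least 2-fold higher or lower stayed within 1.5 times under other pseudocounts, scalings, a filter at 5 FPKM and 1 locus per family. Of 130 differences of single loci, 4 fell below 2-fold with pseudocount 5 and 1 with quantile normalization. None reversed, but a pseudocount cannot reverse a difference. The scalings cannot reverse one where a group is listed at 0, as WT was in 28 of 41 higher loci at day 14 and 33 of 49 at day 21. The absence of reversals is therefore no further evidence. Median log2 differences moved. At day 14, day 21 and with age in Mtr4-null oocytes they were 3.83, 7.43 and 2.22 with pseudocount 0.1, then 1.61, 3.81 and 1.83 with pseudocount 5, then 2.59, 5.35 and 2.50 with median-of-ratios scaling, then 2.65, 5.07 and 2.06 with quantile normalization, and 2.77, 5.27 and 2.2 with equal totals without short loci. They were 2.88 at day 14 and 5.40 at day 21 for the 61 loci with a mean of at least 5 FPKM, and 2.81 and 5.11 with 1 locus per family. Keeping the 31 loci that overlap no exon of another gene left fewer to count. At day 14 the counts were 20 higher and 1 lower and the median 3.12, including 7 H/ACA, 2 scaRNA and 1 snRNA loci that were higher. At day 21 they were 24 higher and 1 lower and the median 4.18, including 8 H/ACA, 2 scaRNA and 1 snRNA loci that were higher. With age, 19 were higher and 6 lower in Mtr4-null oocytes (median 2.34), and 8 were higher and 5 lower in WT oocytes. No paired analysis was possible because the table holds 1 mean per group, and leaving out single libraries was not run for the same reason.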
